A study of Mus musculus with 4 samples.

Results

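Of the 9 mouse genes for laminin chains examined here, Lama1, Lama2, Lama3, Lama4, Lama5, Lamb1, Lamb2, Lamb3 and Lamc1, 5 had at least 1 PRDM6 ChIP peak and 4 had none. Of all protein-coding genes 19.7% had one, a share that rose with gene length to between 49.7% and 63.6% in the classes above 100 kb, to which 6 of the 9 belong. The authors' annotation gave 23 of the 13977 peaks of the series to the 9 laminin genes, with 12 at Lama2, 7 at Lamc1, 2 at Lama4 and 1 each at Lama3 and Lamb1. The peaks were chosen by the authors' assignment, as all those whose gene symbol was one of the 9, so these counts are a description of the annotation and carry no test. In all, 5243 gene symbols had a peak. The source cells were cultured outflow tract smooth muscle cells (SMCs), isolated from late-gestation mouse embryos and infected with a lentivirus that overexpressed FLAG-tagged PRDM6. The study's Methods give the source of its outflow tract SMCs as the aortic arch and ductus arteriosus of embryos with floxed Prdm6 alleles. Its Methods and Results differ on the embryonic day. All 4 libraries came from such cells, 2 in the PRDM6 ChIP group, precipitated with an antibody against the tag, and 2 in the Input group, the same preparation without the precipitation. The peaks are therefore those of a tagged, overexpressed protein, no cells without the virus were compared, and the Input libraries served as the authors' control for calling peaks, with no values of their own. The study gives the precipitations in one place as made from a single sample and in another as independent replicates, so their agreement may cover technical spread only. No expression was measured in this assay, so neither the SMC label nor the activity of any laminin gene could be checked from these data. The study itself reports that nearly all cells of its outflow tract SMC cultures were positive for smooth muscle α-actin and calponin-1 after passaging.

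Laminins are large cross-shaped glycoproteins of the basement membrane, the thin sheet of matrix under epithelia and endothelia and around each muscle cell. Each one is a heterotrimer of an α, a β and a γ chain, wound into a coiled coil, and the α chain ends in globular domains that bind integrins and dystroglycan on the cell surface. In the vessel wall, laminins lie beneath the endothelium and around each SMC, and the α chain a tissue makes largely sets which cells adhere to the sheet.

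A short motif word occurred at intronic summits of both α chain genes with more than 1 peak. The TEAD family of factors, the DNA-binding partners of YAP and TAZ, binds the 8-letter word AGGAATGC, AGGAATGT, GGGAATGC or GGGAATGT, searched on both strands. Such a word lay wholly within 100 bp of the matched summit, in a window of 201 bp, at 5 of the 23 laminin peaks (21.7%, against 7.45% of all peaks), 3 in Lama2 and 2 in Lama4. At the summits of the second-listed replicate, or within 50 bp of the matched summit, the count was 1 of 23 (4.35%, against 6.83% and 4.09% of all peaks), so the count held only for some choices of summit and window. The 5 windows are shown because they include the 1 laminin peak with a strong match between replicates, that of Lama2 intron 41. They are given 5′ to 3′ on the forward strand of the reference (GRCm38, the mm10 build), with the TEAD word in capitals.
Lama2 intron 63 (chr10:26985837-26986037): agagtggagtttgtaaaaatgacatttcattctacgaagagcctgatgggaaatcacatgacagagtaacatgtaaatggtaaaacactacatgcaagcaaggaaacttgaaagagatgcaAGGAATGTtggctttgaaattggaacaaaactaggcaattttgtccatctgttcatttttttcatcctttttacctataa
Lama2 intron 41 (chr10:27063822-27064022): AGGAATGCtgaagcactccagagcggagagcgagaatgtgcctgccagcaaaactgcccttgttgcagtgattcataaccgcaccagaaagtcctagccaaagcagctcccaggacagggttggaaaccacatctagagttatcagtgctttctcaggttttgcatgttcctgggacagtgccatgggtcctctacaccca
Lama2 intron 29 (chr10:27174280-27174480): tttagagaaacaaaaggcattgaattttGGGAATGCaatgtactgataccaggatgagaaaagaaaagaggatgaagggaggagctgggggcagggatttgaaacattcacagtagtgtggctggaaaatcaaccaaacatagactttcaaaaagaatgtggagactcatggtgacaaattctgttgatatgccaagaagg
Lama4 intron 1, first peak (chr10:38973161-38973361): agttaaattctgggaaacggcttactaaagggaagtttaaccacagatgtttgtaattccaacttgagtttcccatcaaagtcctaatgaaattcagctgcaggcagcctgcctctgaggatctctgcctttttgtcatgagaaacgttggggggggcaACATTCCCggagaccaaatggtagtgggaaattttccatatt
Lama4 intron 1, second peak (chr10:38995080-38995280): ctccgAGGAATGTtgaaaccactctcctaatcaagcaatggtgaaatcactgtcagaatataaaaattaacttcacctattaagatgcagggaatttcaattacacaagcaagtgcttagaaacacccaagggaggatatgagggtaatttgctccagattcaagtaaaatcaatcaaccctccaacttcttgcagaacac

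Both a p-value and a measure of reproducibility describe each peak. MACS2 gave it a −log10 p in each replicate, and the authors kept the smaller of both as the matched value. The irreproducible discovery rate (IDR) then estimated from the ranks in both replicates how likely the match was to be irreproducible. It was also given as a score, with 540 for a global IDR of 0.05 and 48 as the lowest score in the list, and no IDR limit had been applied to the list. Replicates are called first-listed and second-listed, since the list did not say which library each one was. Across the 23 laminin peaks the matched −log10 p had a median of 4.93, with quartiles of 4.36 and 6.15 and a range of 3.05 to 12.95, against a median of 5.53 over all peaks. Only 7 laminin peaks (30.4%) were above that series median. A global IDR of at most 0.05 was reached by 1 of the 23 (4.35%, 95% Wilson interval 0.772% to 20.99%), against 3.33% of all peaks, so the laminin share was near the background. The lowest score was held by 12 of the 23 (52.2%), against 41.4% of all peaks. The laminin peaks were thus mostly of low rank. They had a median width of 511 bp against 600 bp, and summits a median of 141 bp apart between replicates against 121 bp.

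**Figure D1:**
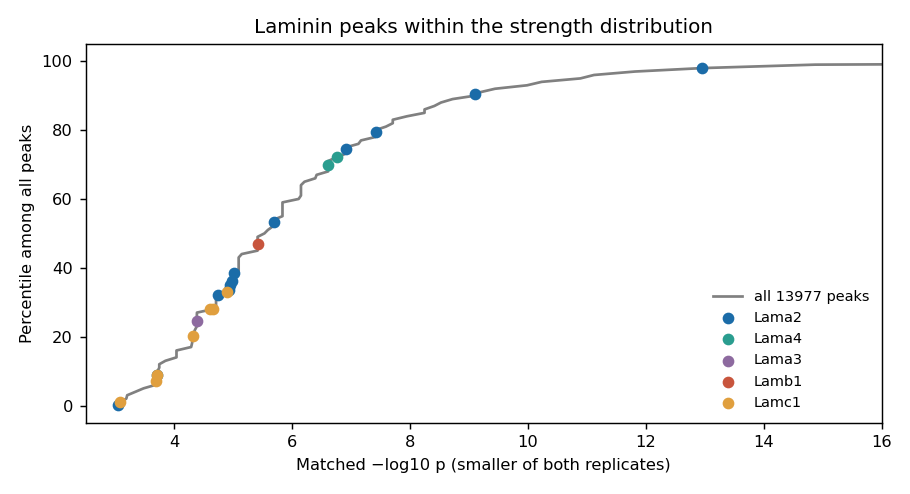
Percentile of each laminin peak (points, coloured by gene) among all 13977 peaks against its matched −log10 p, the smaller of both replicates, with the grey line for all peaks and the axis ending at 16. Most points lie on the lower part of the curve, all 7 Lamc1 peaks below the median of 5.53, and 1 Lama2 peak stands at 12.95.

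Among the α chains, Lama2 carried the most peaks. It encodes the α chain of the basement membrane around skeletal and cardiac muscle fibres and in peripheral nerve, and its loss causes a congenital muscular dystrophy. The gene runs over 639.7 kb on the reverse strand of chromosome 10 (26980036 to 27619758), with 65 exons in its main transcript. Its 12 peaks spread over 745 kb, from the 3′ end of the gene to 113 kb upstream of its start. Only 99 genes, 1.89% of those with a peak, had 12 or more. The count rests on the assignment, since 9 peaks went to Lama2 when each peak was given to the nearest protein-coding start of the reference.

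The strongest Lama2 peak lay in intron 41 of 64 (chr10:27063629-27064061). Its −log10 p was 12.95 in the first-listed and 18.8 in the second-listed replicate, and its score of 718 stood for a global IDR of 0.0186. It ranked 272 of the 13977 peaks by matched value, and the summits of both replicates were 18 bp apart, so both libraries placed it at the same spot. The TEAD word of its window, AGGAATGC, stood at the far edge, 96 bp from the summit.

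Next came a peak outside the gene, 36.0 kb upstream of the main start (chr10:27652810-27653430), with −log10 p values of 10.2 and 9.10 and a score of 298. It fell in intron 3 of a non-coding transcript, annotated as the long intergenic RNA Gm30165, and was the second laminin peak by matched value. The third was in intron 63 (chr10:26985786-26986257), with values of 9.82 and 7.42 and a score of 216. The annotation placed this one in the promoter class only because a short retained-intron transcript starts nearby, 2.26 kb away, while the start of the main transcript was 631 kb away. Its TEAD word, AGGAATGT, lay 25 bp from the summit, the nearest of the 5.

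At the Lama2 start itself the peak was weak. It covered the beginning of intron 1 (chr10:27616034-27616692), its near edge 151 bp inside the transcript, with −log10 p values of 9.57 and 4.98 and a score of 104. The replicates thus ranked it differently, and its matched value was below the median of the series. The other 8 Lama2 peaks had matched values of 3.05 to 6.92. They comprised 4 in introns 14, 29, 55 and 58, a pair 6 bp apart about 46 kb upstream in intron 2 of Gm30165, and a pair 95 bp apart about 113 kb upstream. The highest of the 8 was in the upstream pair at 113 kb, with values of 6.92 and 9.10. The lowest, in intron 14, had 3.05 and 3.08, close to the limit of the list in both replicates.

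Between the peak of intron 14 and that of the start lay a stretch of 365 kb with no peak assigned to Lama2. It was not empty, since 2 further peaks lay inside the gene there, in introns 12 and 4, with matched values of 6.15 and 3.73, and the annotation gave both to the gene model 4930579H20Rik. Counting by position instead of assignment, 9 peaks overlapped the Lama2 gene body, or 1.41 per 100 kb. The next peaks beyond the Lama2 group belonged to Arhgap18, 142 kb away on one side, and to Ptprk, 133 kb away on the other.

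Lama4 encodes the α chain typical of endothelial basement membranes and also made in muscle. It had 2 peaks, both in its first intron of 39.3 kb (chromosome 10, 38965515 to 39110188, forward strand), which lies at the 5′ end of a gene of 145 kb. The first (chr10:38972611-38973606), 7.10 kb inside the start, had −log10 p values of 13.9 and 6.61, and the second (chr10:38994286-38995718), 28.8 kb inside, had 6.77 and 9.54. Each replicate thus put a different one of the pair higher, and the matched values of 6.61 and 6.77 hardly differed. Both were above the series median, with scores of 152 and 158, well short of the score of 540 at the IDR limit. Both had a TEAD word in the summit window, the only gene among the 9 where each assigned peak had one, at 63 bp and 91 bp from the matched summits. From the second-listed summits these words were 439 bp and 162 bp away, so neither peak had one within 100 bp there.

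The epithelial α chain gene Lama3, whose product anchors skin to its basement membrane, had 1 peak and none in its body of 249 kb. The peak (chr18:12320505-12321229) lay 12.6 kb upstream of the start, with −log10 p values of 7.95 and 4.39 and the lowest score. A neighbouring peak 6.48 kb further out was assigned to Ankrd29, so the Lama3 peak stood near the border between both genes' assignments. Lama1, the α chain of the earliest embryonic basement membranes, and Lama5, the most widely made α chain after birth, had no peak. The peak nearest to the Lama1 start was 279 kb away and assigned to Arhgap28. Around the Lama5 start no peak came closer than 1187 kb, and that one was assigned to Zbtb46.

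**Figure D2:**
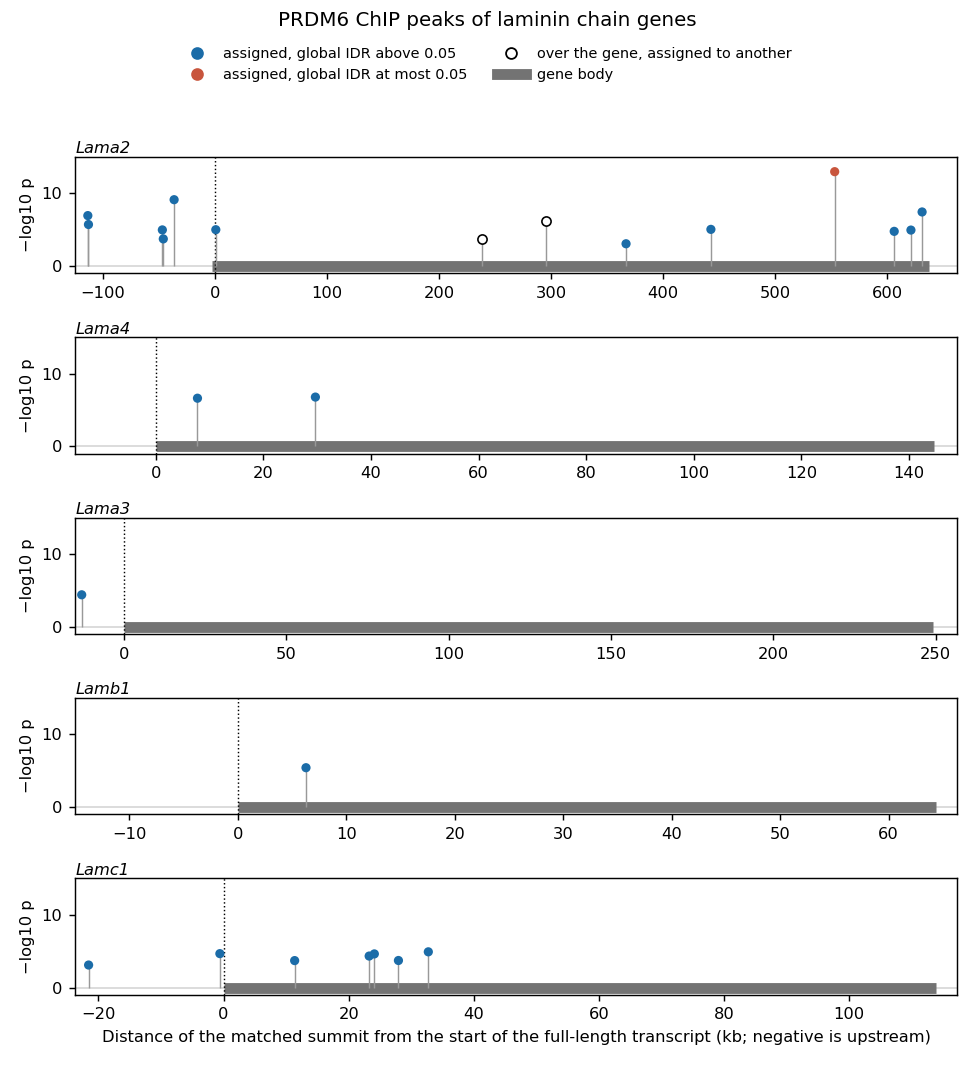
Matched −log10 p of each peak (points) against the distance of its summit from the start of the full-length transcript, in kb with its own scale for each gene, with the gene body as a grey bar. Lama2 peaks spread along the gene and upstream of it. Lama4 peaks lie in the first part of the gene, and Lamc1 peaks lie in the first part of the gene or upstream of its start. Open circles mark the 2 peaks over Lama2 that were assigned to another gene.

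Of the β chains only Lamb1 had a peak. Lamb1 is the β chain shared by most laminins of the embryo. Its peak (chr12:31270911-31273006) was the widest of the 23, at 2096 bp, and ran from intron 4 across exon 5, which has 74 bp, into intron 5. The summit was in intron 4, 911 bp before the exon, so the label of an exonic peak came from its width. In the second-listed replicate this peak had a −log10 p of 26.6 and ranked 18 of all 13977 peaks, while in the first-listed replicate it had 5.42 and ranked 10636. A gap between replicates as large as this 21.2 was seen at only 6 peaks of the series (0.0429%). The matched value of 5.42 therefore hid the highest value of any laminin peak in either library, and the score was 93.

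Lamb2, the β chain of synaptic and glomerular basement membranes and of arterial walls, had no peak within 137 kb of its start, the nearest being assigned to Gpx1. Lamb3, the β chain that pairs with Lama3 in skin, had no assigned peak either, and the nearest to its start, 18032 bp away, was assigned to Traf3ip3 with a matched −log10 p of 3.73. Its longest transcript, however, contains the gene Hsd11b1 within intron 1, and a peak over the start of a Hsd11b1 transcript (chr1:193243182-193244085) lay there with −log10 p values of 7.95 and 10.9. By position alone this peak overlapped Lamb3, and by assignment it belonged to Hsd11b1.

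Lamc1 encodes the γ chain that most laminins contain and was the only γ chain among the 9 genes. It carried 7 peaks over 54.5 kb (chromosome 1, gene body 153218922 to 153332786, reverse strand), and 425 genes (8.11% of those with a peak) had as many or more. In place they formed a compact group: 5 in the first intron of 69.4 kb, 1 just upstream of the start and 1 at 21.5 kb upstream. None lay beyond intron 1. In strength they were the weakest group of the laminin genes with more than 1 peak, with a median matched −log10 p of 4.32 and a range of 3.09 to 4.91, so that all 7 were below the series median. The lowest score was held by 6 of the 7.

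The highest Lamc1 peak was in intron 1, 32.4 kb inside the start (chr1:153299901-153300347), with values of 5.23 and 4.91, and 50.1% of it was repeat sequence. The promoter peak (chr1:153333155-153333959), its near edge 369 bp upstream of the start, had 4.66 in the first-listed and 10.9 in the second-listed replicate and a score of 96. Another in intron 1 (chr1:153308488-153308904), 23.9 kb inside, had 4.62 and 5.84. The replicates did not rank these peaks in the same order. Of the 7, 3 were higher in the first-listed and 4 in the second-listed replicate, and the peak 27.4 kb inside the start had 7.71 in the first-listed and 3.71 in the second-listed, with summits 686 bp apart.

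**Figure D3:**
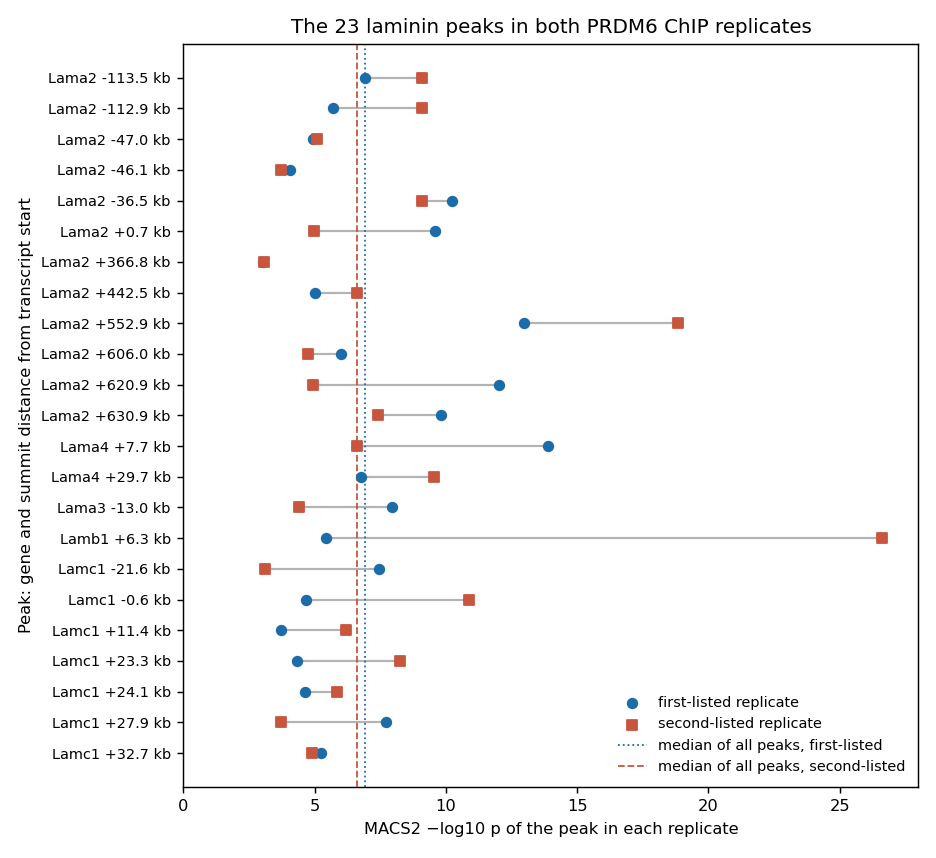
MACS2 −log10 p of each of the 23 laminin peaks in the first-listed (circles) and second-listed (squares) replicate, joined by a line, with the median of all peaks in each replicate (6.92 and 6.61) as vertical lines. The intron 41 peak of Lama2 (+552.9 kb) is high in both, and the Lamb1 peak is high in the second-listed replicate alone.

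Over the 23 peaks neither library was higher throughout, since the second-listed value was the larger in 12 and the first-listed in 11. The medians were 5.99 in the first-listed replicate (range 3.05 to 13.9) and 6.20 in the second-listed (3.08 to 26.6), against 6.92 and 6.61 over all peaks. The list gave no read totals, but many p-values lay on the tails of a single Poisson distribution, that of the genome-wide background of MACS2, so that the height of such a peak in fragments could be read back to within 1 fragment. In the first-listed replicate this was possible for 8 laminin peaks (34.8%, against 58.3% of all peaks). Their median height was 16.5 fragments, against 14 for all readable peaks, over a background mean of 2.61. In the second-listed replicate it was possible for 15 (65.2%, against 63.5% of all peaks). Their median was 14, against 13 for all readable peaks, over a background mean of 2.39. Laminin peaks were therefore piles of 8 to 33 fragments where they could be read. The Lama2 peak of intron 41 was 21 and 26 fragments high, the Lama4 peak at 7.10 kb was 22 and 13, and the Lamb1 peak was 12 and 33.

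The annotation classes of the laminin peaks differed in their shares from those of the whole list. The annotation put 15 of the 23 (65.2%) in introns, against 35.9% of all peaks, but 3 of the 15 were in introns of Gm30165 upstream of Lama2, so 12 of the 15 lay in introns of laminin genes. The annotation put 7 (30.4%) in first introns, those of Lama4 and Lamc1, against 12.6%. The promoter class held 3 (13.0%), against 21.3% of all peaks, and 1 of these 3 was the intron 63 peak of Lama2 described above. Distal intergenic peaks numbered 4 (17.4%, against 37.2%), and only 2 peaks (8.70%, against 19.3%) were more than 100 kb from the start of the transcript assigned to them. These shares were not tested, because peaks of 1 gene share their surroundings and are not replicates.

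Gene length went with having a peak across the whole annotation. Of all 21911 protein-coding genes, 19.7% had an assigned peak, against 5 of the 9 laminin genes, but this share was 8.94% for genes of up to 20 kb, 49.7% for those of 100 to 200 kb and 63.5% for those above 500 kb. The laminin genes are mostly long. Lamb2 and Lama5, at 10.8 kb and 49.5 kb the shortest of the 9, had no peak, and Lama2, the longest, had the most. Of the 4 laminin genes of 100 to 200 kb, Lama4 and Lamc1 had peaks and Lama1 and Lamb3 had none, close to the share of that length class. Among the 230 genes above 500 kb the mean was 3.57 peaks, against the 12 of Lama2. Per length of gene body, the 9 laminin genes together had 18 overlapping peaks in 1.53 Mb, or 1.17 per 100 kb, against 0.685 per 100 kb over all protein-coding genes, and Lamc1 had the highest value of the 9 at 4.39 per 100 kb.

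**Figure D4:**
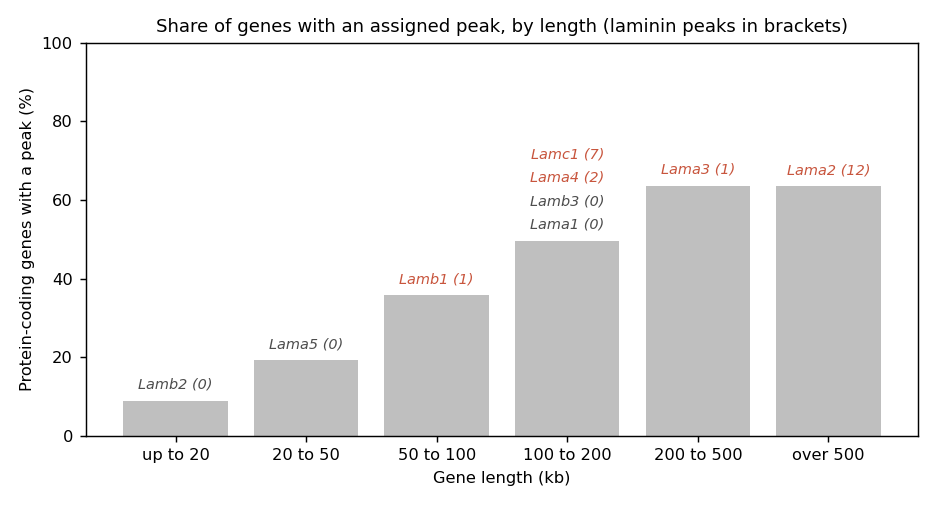
Share of all protein-coding genes with an assigned peak (bars, in percent) by gene length in kb, with each laminin gene written above its length class and its number of peaks in brackets. The share rises from 8.94% in the shortest class to 63.5% in the longest, and the 2 shortest laminin genes have no peak.

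The motif words at the summits were set against those of all peaks. A TEAD word lay in the summit window of 5 of the 23 laminin peaks (21.7%, 95% Wilson interval 9.66% to 41.9%), against 7.45% of all peaks. All 5 were in introns of Lama2 and Lama4, on chromosome 10. The count rested on the place of the summit. With the summit of the first-listed replicate it was 6 (26.1%, against 7.16% of all peaks), and with that of the second-listed replicate it was 1 (4.35%, against 6.83%). Within 50 bp of the matched summit it was 1 (4.35%, against 4.09%), and for the 6-letter core GGAATG within 100 bp it was 6 (26.1%, against 19.03%). The matched summit lies at the midpoint between the replicates' summits, to within 1 bp, in 11280 of the 13977 peaks, so it can fall where neither library had its maximum.

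The word for AP-1, the dimer of Jun and Fos proteins, is TGACTCA, read as TGAGTCA on the other strand. It lay in none of the 23 summit windows, against 14.3% of all peaks. By counting error alone, 0 of 23 allows a share of up to 13.0% at 3 counts and of up to 14.3% as the upper end of the 95% Wilson interval, so a share like that of all peaks was not clearly outside what 23 peaks can show. The absence did not extend to the peaks as a whole. Within the full peaks, 6 of the 23 (26.1%) held an AP-1 word, against 34.3% of all peaks, and 2 and 1 held one within 100 bp of the first-listed and second-listed summit. The study writes a possible PRDM6 site as TTTC/AT, and the searched words TTTCAT and TTTCCT are a reading of it made here. Read as TTTCT or TTTAT, which neither searched word contains, the site was not searched. The shares may therefore not be those of the study's site. Such a searched word was in 6 summit windows (26.1%), against 43.1% of all peaks, and within full peaks in 16 (69.6%), against 76.7%. At the first-listed summits it was in 10 (43.5%, against 42.5%), at the second-listed in 7 (30.4%, against 40.5%) and within 200 bp of the matched summit in 16 (69.6%, against 68.2%), so the lower share at the matched summit was not seen under each choice. The CArG box, the site of serum response factor at contractile genes of SMCs, was in 1 window (4.35%), against 1.41%, at the upstream Lama2 peak of chr10:27662794-27663149. Words of different motifs were counted separately, also where they shared letters.

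**Figure D5:**
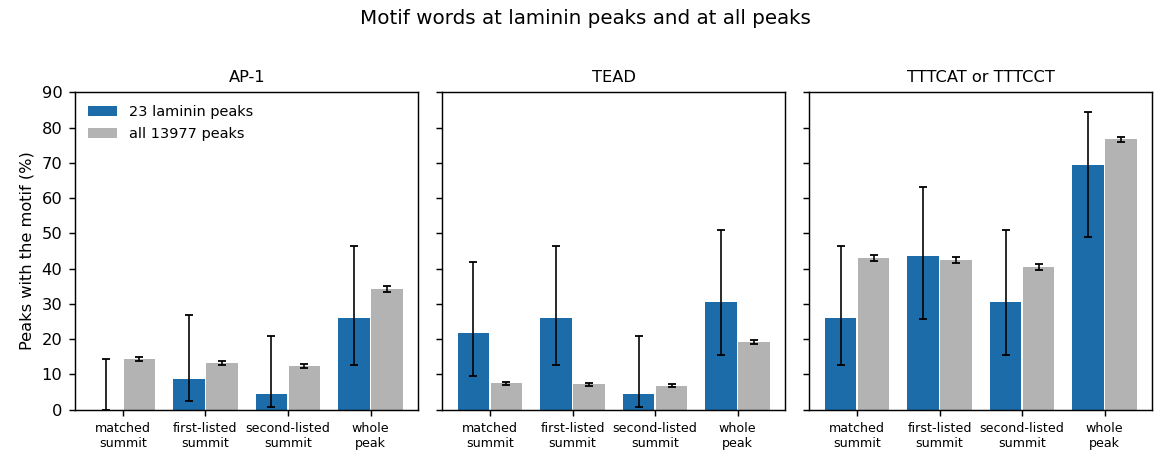
Share of peaks (in percent) with an AP-1, TEAD, or TTTCAT or TTTCCT word within 100 bp of the matched, first-listed or second-listed summit or within the whole peak, for the 23 laminin peaks (blue) and all 13977 peaks (grey), with 95% Wilson intervals for counting error. The TEAD share of the laminin peaks is 21.7% at the matched summit and 4.35% at the second-listed summit, and the laminin intervals are wide.

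At 3 laminin peaks an AP-1 or TEAD word occurred as a pair within 50 bp, away from the matched summit (13.0%, 95% Wilson interval 4.54% to 32.1%, against 2.28% of all peaks). These stretches are shown because each sits in a peak described above, and both the stretches and the limit of 50 bp were picked after the hits had been seen, so the shares are no evidence of a difference. The AP-1 words of the Lamc1 promoter peak were 29 bp apart, first base to first base, and those of the Lama2 intron 58 peak 37 bp apart. The TEAD words of the Lamb1 peak were 42 bp apart and lay 57 bp and 99 bp from the summit of the first-listed replicate. All are written on the forward strand (GRCm38) with the words in capitals.
Lamc1 promoter (chr1:153333829-153333904): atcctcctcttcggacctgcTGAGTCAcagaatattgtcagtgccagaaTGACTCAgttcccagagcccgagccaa
Lama2 intron 58 (chr10:26996112-26996195): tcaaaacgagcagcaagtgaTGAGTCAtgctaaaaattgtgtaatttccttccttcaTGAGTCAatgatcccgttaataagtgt
Lamb1 intron 4 (chr12:31271197-31271286): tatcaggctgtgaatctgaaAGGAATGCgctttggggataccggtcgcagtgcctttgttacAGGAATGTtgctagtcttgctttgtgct

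Base composition at the laminin summits was close to that of the list. The median GC content of the windows was 43.3%, against 43.8%, and 4 of 23 (17.4%) held no CpG, against 19.3%. Interspersed and simple repeats, the soft-masked part of the reference, covered a median of 13.3% of a laminin peak, against 14.3%. In 3 laminin peaks (13.0%, against 3.88% of all peaks) repeats made up more than 50% of the sequence. These were the Lama2 peak of intron 55 (chr10:27010733-27010906), which was repeat along its whole length, the Lama2 peak with the CArG box (89.9%) and the highest Lamc1 peak (50.1%). All 3 had the lowest score, and whether reads of repeat copies contributed to them was not tested.

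Genes that work with laminins were counted in the same way. Lamc3, a γ chain gene outside the 9, had no peak. Among partners of laminin in the basement membrane, such as the nidogens, perlecan and type IV collagens, 11 of 20 genes had a peak, with 23 peaks in all. Of 15 genes for laminin receptors, mainly integrins, dystroglycan and syndecans, 6 had a peak, with 18 peaks in all. Netrins, which share domains with the laminin short arms, had a peak in 1 of 6 genes. Beside these, 19.7% of all protein-coding genes had a peak, a share that moved with gene length as given above, and these lists were not matched on length. None of the 23, 18 and 2 peaks of the partners, receptors and netrins reached a global IDR of 0.05, against 3.33% of all peaks. With so few peaks, a count of 0 is close to that share.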

How the data were processed

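The authors aligned paired reads to mm10 with BWA, called peaks with MACS2 for either PRDM6 ChIP library over the matching Input, matched both replicates by IDR and annotated the matched peaks. The deposited list gave each peak a score scaled from its global IDR, and MACS2 had produced the deposited −log10 p-values. The columns for signal and q-value held no values in the list, and the annotation column headed as a q-value repeated the second-listed −log10 p in all 13977 rows. Read totals per library are not given in the sources used here, and which sample is first-listed is not known.

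Members, lists and motifs were chosen with earlier results of these data known. All 9 genes were named. For genes with more than 5 peaks, the 3 highest, the one nearest the TSS and any past an IDR of 0.05 were given in full, and other peaks described were chosen after their values were seen. Positions are those of the deposited list, counted from 1. Gene bodies, introns and sequences came from GRCm38.p6 with GENCODE M21 models, where 13858 of the 13977 annotated transcripts were found, all with equal ends. Main transcripts were the longest flagged as principal. Fragment heights were searched for on Poisson tails to within 0.0002, and the motif and height searches were tested on simulated data. Python 3.11.15, pandas 2.3.3, SciPy 1.17.1 and pysam 0.24.0 were used. No test between groups was possible with 1 matched list, so all comparisons are descriptions and intervals cover counting error over peaks only. One item of the lists is not reported here.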

Additional observations from a re-analysis of the deposited data

How the results depend on the processing

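Across 9 results, 36 alternatives were tried, and 19 left a count within 1.5 times its main value or a median within the spread between replicates. A global IDR limit of 0.05 left 1 laminin peak at 1 gene (4.35% of the 23, against 3.33% of all peaks). A limit of 0.01 left 0 laminin peaks and 0 genes. Only 139 of all 13977 peaks were past that limit, so 0 of 23 was near the background. Peaks within 10 kb of the assigned start numbered 7 (30.4%, against 34.8% of all peaks). Assignment to the nearest protein-coding start gave 20 laminin peaks, with 9 at Lama2. Each replicate alone gave a median −log10 p of 5.99 to 6.20. By construction neither could be below the matched median of 4.93, since the matched value is the smaller of both. The AP-1 count rose from 0 to 4 within 200 bp of the summit, to 6 in the whole peak, and to 1 to 2 with the summits of each replicate alone. The TEAD count was 1 within 50 bp and 1 to 6 with each replicate's summits. The count for TTTCAT or TTTCCT was 16 within 200 bp, 16 in the whole peak and 7 to 10 with each replicate's summits. Wider windows hold more words by construction, and the cause of the differences between summits was not tested. Counts of promoter peaks (2 to 4) and of peaks over gene bodies (18 to 19) stayed close to the main values. No paired analysis was possible because the list held no value of the Input group and no test was run. Each share of laminin peaks rests on 23 peaks. Heights could be read for 8 of them (34.8%, against 58.3% of all peaks) in the first-listed replicate and 15 (65.2%, against 63.5%) in the second-listed.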
